A study of Mus musculus with 4 samples.

Results

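The enzymes and helper proteins that turn newly made procollagen into cross-linked fibres were followed in Men1-knockout mouse embryonic fibroblasts given Men1 or vector alone. They comprise 7 genes, Lox, Loxl1, P4ha1, P4ha2, Serpinh1, Bmp1 and Pcolce, chosen by name for their known role in collagen maturation. Every probe set whose platform annotation gave exactly 1 symbol, that of one of these genes, was used, which yielded 10 of the 12422 probe sets tested and 7 of the 8251 genes named on the array. Lox, P4ha2 and Bmp1 were each measured by 2 probe sets and the other 4 genes by 1. The probe sets of such a gene are called brighter and dimmer below, by their mean signal.

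All cells were embryonic fibroblasts of a mixed FVB;129Sv strain background and carried the Men1 knockout. Cells given Men1 back (the Men1-complemented group, labelled Men1) were compared with cells given vector alone (the vector group, labelled Men1-/-), with 2 arrays per group. The cells grew in medium with 10% FBS and 1% PenStrep, were plated at 70% density and were harvested 24 h later. The series sought genes downstream of menin, the nuclear scaffold protein that Men1 encodes and that works with histone methyltransferases. The labels do not say whether a group was a clone or a pool, how the knockout was made, or whether replicates came from different cultures, so each p reflects only how far these arrays lie apart, which may be technical.

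Collagen is assembled inside the endoplasmic reticulum and finished outside the cell. Prolyl 4-hydroxylases, tetramers of a catalytic alpha subunit (P4ha1 or P4ha2) and the beta subunit P4hb, hydroxylate proline so that the triple helix is stable at body temperature, and Serpinh1 (HSP47) is a chaperone that binds the folded helix and escorts it out of the endoplasmic reticulum. After secretion, Bmp1 cuts off the carboxy-terminal propeptide of fibrillar procollagens, Pcolce enhances that cut, and the copper enzymes Lox and Loxl1 oxidise lysine residues of collagen and elastin, which starts cross-linking. Fibroblasts are a main source of this machinery, and Lox has been reported elsewhere as a gene regulated by menin.

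The arrays had been scaled to nearly the same trimmed mean signal, 150.07 to 150.08, and their 75th percentiles ranged from 186.2 to 195.1. For 19 control probe sets no RNA had been spiked in, and a signal above the highest of them on its array (25.9 and 27.4 with Men1, 15.9 and 20 with vector) is called above the controls. Of the fibroblast markers 9 of 11 were above the controls on all 4 arrays, including Col1a1 (6057.4 to 7618.7), whereas Thy1 was above them on none and the Vim probe set read only 24.2 to 37.5. Of the markers of other cell types, 2 of 5 epithelial genes (Cdh1 and Krt19), 1 of 4 endothelial genes (Pecam1) and 3 of 5 blood cell genes (Cd68, Csf1r and Cd14, the last at 218.3 to 257.8) were also above the controls on all 4 arrays, whereas Epcam, Krt8, Cdh5, Tek, Ptprc and Lyz2 were above them on none. The neural genes Nes (1358.9 to 2232.6), Tubb3 and Gfap, 3 of 3 listed, were above the controls on all 4 arrays as well. So was 1 of 3 skeletal muscle genes (Myod1, 78.9 to 109.8), but 0 of 2 measured adipocyte genes. The Men1 probe set read 18.8 and 22.5 with Men1, against 18.1 and 29.5 with vector. It was thus above the controls on both vector arrays but on neither Men1-complemented array. Since its place relative to the deleted and introduced sequence is unknown, it checks nothing about the labels. In such bulk samples fewer cells of a type and less RNA per cell cannot be told apart.

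None of the 10 probe sets passed the test between the groups. In limma, fitted to log2(signal + 16) of all 12422 probe sets, 0 of 10 had a Benjamini-Hochberg adjusted p under 0.05, and 0% of all probe sets did. At an unadjusted p under 0.05 there were also 0 of 10, where the share over all probe sets was 1.88%. With the Men1-complemented mean set against the vector mean, 7 of the 10 were lower and 3 higher, and over all probe sets 52.8% were lower. The median log2 difference was -0.06 for the 10 and -0.01 for all probe sets, and the median size of the difference regardless of sign was 0.15 and 0.13. Signals of the groups did not overlap for 3 of the 10, Lox (brighter), Loxl1 and Bmp1 (brighter), each lower with Men1. Over all probe sets 22.1% did not overlap, 11.7% lower and 10.4% higher with Men1. That count of 3 rose to 9 without vector replicate 1, 6 without Men1 replicate 2 and 8 without vector replicate 2, where the share over all probe sets rose to 72.4%, 52.4% and 68% because fewer arrays remain to overlap. Without Men1 replicate 1 it stayed at 3, where the share over all probe sets rose to 50%. With 2 arrays against 2, an exact two-sided permutation test of a single probe set cannot give a p below 0.333.

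**Figure D1:**
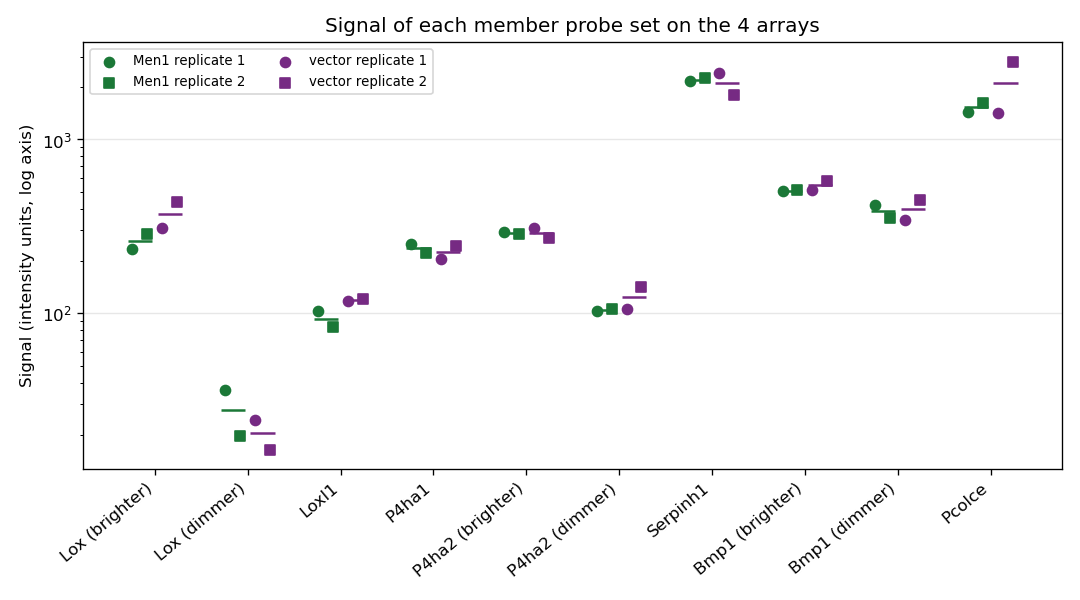
Signal of each of the 10 probe sets (vertical log axis, intensity units) on the 2 Men1-complemented (green) and 2 vector (purple) arrays; circles are replicate 1, squares replicate 2, and horizontal lines the group means. Lox (brighter), Loxl1 and Bmp1 (brighter) are lower on each Men1-complemented array than on each vector array, as are 11.7% of all probe sets. The groups of Lox (dimmer) overlap, with the higher mean with Men1. The high Pcolce mean with vector comes from replicate 2 at 2797.2.

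Lox, in its brighter probe set, and Loxl1 read lower with Men1, by differences that did not pass the test. Lox, lysyl oxidase, which cross-links collagen and elastin, read 234.8 and 287.0 with Men1, against 308.4 and 439.0 with vector, in its brighter probe set. Both vector signals lay above both Men1-complemented signals, but the nearest of them, 308.4 and 287.0, were only 0.10 apart on the log2 scale, less than the distance between arrays of the same group (0.27 with Men1 and 0.49 with vector). Group means were 261 ± 36.9 with Men1 and 374 ± 92.3 with vector (SD, n = 2 each). The log2 difference was -0.48 with a standard error (SE) of 0.25, a ratio of 0.72 with a 95% interval from 0.46 to 1.12. The limma adjusted p was 1, the unadjusted p 0.11 and the exact permutation p 0.333. By unadjusted p this probe set stood at place 599 of 12422, and 94.6% of all probe sets had a smaller difference in size.

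The dimmer Lox probe set, of the type whose probes can match several related transcripts, ran the other way. It read 36.1 and 19.7 with Men1, against 24.5 and 16.5 with vector, and the groups overlapped. Its log2 difference was 0.25 (SE 0.26, limma adjusted p = 1). On replicate 2 of both groups its signal was below the highest control of that array, so only 2 of its 4 signals were above the controls, and it was the only one of the 10 probe sets for which this held. With both Lox probe sets averaged the difference was -0.11. The direction of the Lox difference therefore depends on which probe set is read, and the brighter of them was above the controls on all 4 arrays.

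Loxl1, lysyl oxidase-like 1, an enzyme known for its part in elastic fibre upkeep, read 103.9 and 83.1 with Men1, against 118.5 and 120.8 with vector. The vector arrays were close together and both Men1-complemented arrays lay below them. Means were 93.5 ± 14.7 and 120 ± 1.63 (SD, n = 2 each). The log2 difference of -0.32 (SE 0.19) had a 95% interval from -0.81 to 0.18, a limma adjusted p of 1 and an exact permutation p of 0.333. Loxl1 was the only one of the 10 whose group difference was larger than both distances between replicates (0.27 with Men1 and 0.02 with vector), which held for 13.3% of all probe sets. Without Men1 replicate 2 its difference was -0.18, and without each of the other 3 arrays it lay between -0.45 and -0.30.

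Neither the proteinase that trims procollagen nor its enhancer passed the test. Bmp1, which encodes the procollagen C-proteinase, read 502.6 and 511.5 with Men1, against 515.4 and 576.5 with vector in its brighter probe set. The groups did not overlap, but by a margin of only 0.01 on the log2 scale between 511.5 and 515.4. The log2 difference was -0.10 (SE 0.18) with an interval from -0.56 to 0.35. The dimmer Bmp1 probe set read 420.2 and 353.8 with Men1, against 345.6 and 447.9 with vector, so that the vector arrays held both the lowest and the highest signal. Its log2 difference was -0.03 (SE 0.22). The intervals of the pair together span ratios from 0.66 to 1.45.

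Pcolce, the procollagen C-proteinase enhancer, varied more over the arrays than any other of the 10 probe sets. It read 1435.3 and 1622.4 with Men1, against 1413.8 and 2797.2 with vector. Vector replicate 1 had the lowest signal of the 4 and vector replicate 2 the highest, 0.98 apart on the log2 scale, and 93.6% of all probe sets had a smaller distance between the vector arrays. The mean signals were 1529 ± 132 with Men1 and 2106 ± 978 with vector (SD, n = 2 each). The log2 difference was -0.38 (SE 0.36, limma adjusted p = 1), and its interval ran from -1.31 to 0.55. Without vector replicate 2 it was 0.11, of opposite sign, and without vector replicate 1 it was -0.87. Lox (brighter) likewise moved from -0.48 to -0.23 without vector replicate 2 and to -0.72 without vector replicate 1. These were the 2 probe sets of the 10 at an unadjusted p under 0.05 in that fit without vector replicate 1, where 8.3% of all probe sets were.

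**Figure D2:**
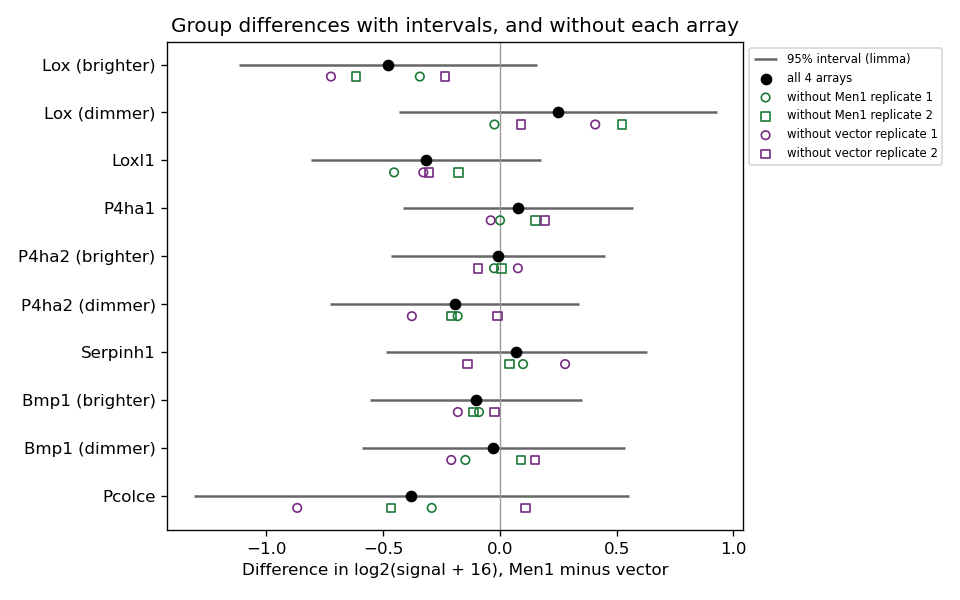
Difference in log2(signal + 16), Men1 minus vector (horizontal axis), for each of the 10 probe sets: black points and bars are the fit to all 4 arrays with its 95% limma interval, open symbols below them the difference without 1 array. Every interval crosses 0, and Pcolce moves from -0.87 to 0.11 with the vector array that is left out. Lox (brighter), Loxl1, P4ha2 (dimmer) and Bmp1 (brighter) stay below 0, whereas Lox (dimmer) is at 0.25 in the fit to all 4 arrays. Where the groups do not overlap, leaving out 1 array cannot change the sign.

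The prolyl 4-hydroxylase alpha subunits did not pass the test either, and their groups overlapped. P4ha1, the alpha subunit that most cells rely on, read 250.8 and 224.0 with Men1, against 205.3 and 244.0 with vector. The signals overlapped, and the log2 difference was 0.08 (SE 0.19, interval -0.42 to 0.57). P4ha2, the second catalytic subunit, read 292.0 and 285.2 with Men1, against 309.2 and 272.7 with vector in its brighter probe set, where the Men1-complemented signals fell between the vector ones. Its difference of -0.0086 (SE 0.18) was the smallest of the 10, and its interval still allows a ratio from 0.72 to 1.37. The dimmer P4ha2 probe set is of the same type as the dimmer Lox one, whose probes can match several related transcripts. It read 103.9 and 106.1 with Men1, against 105.9 and 141.1 with vector. Of these only vector replicate 2 stood apart, and the difference went from -0.19 (SE 0.20) to -0.011 without that array.

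Serpinh1, the collagen chaperone HSP47, read 2155.2 and 2243.0 with Men1, against 2420.8 and 1808.9 with vector. As for P4ha2 (brighter), the vector arrays enclosed the Men1-complemented ones. The mean signals were 2199 ± 62.1 with Men1 and 2115 ± 433 with vector (SD, n = 2 each), and the log2 difference was 0.07 (SE 0.22, limma adjusted p = 1). It was 0.28 without vector replicate 1 and -0.14 without vector replicate 2.

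Across the arrays, vector replicate 2 held the highest or lowest signal for most of these probe sets, at times narrowly (Loxl1, 120.8 against 118.5). It held the highest signal for 6 of the 10 (Lox brighter, Loxl1, P4ha2 dimmer, both Bmp1 and Pcolce) and the lowest for 3 (Lox dimmer, P4ha2 brighter and Serpinh1). Over all probe sets this array held the highest signal for 42% and the lowest for 20.4%. The median distance between the vector arrays was 0.34 for the 10 and 0.31 for all probe sets, and that between the Men1-complemented arrays 0.16 and 0.20. Replicates of these genes thus lay about as far apart as those of all probe sets.

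**Figure D3:**
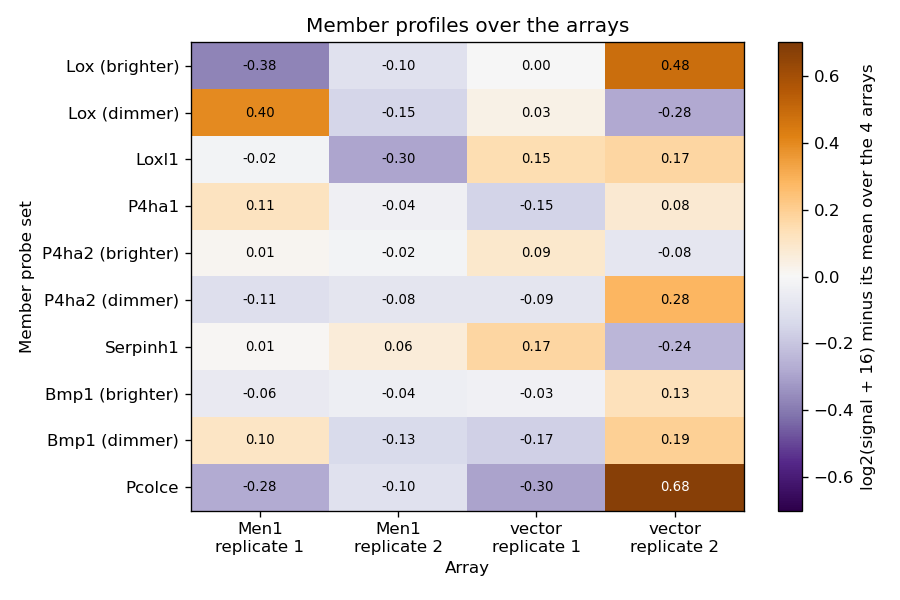
Each cell is log2(signal + 16) of a probe set (rows) on an array (columns) minus the mean of that probe set over the 4 arrays. The vector replicate 2 column holds the strongest departures, 0.68 for Pcolce and 0.48 for Lox (brighter), and the lowest value of Serpinh1, -0.24.

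The same array also differed in other matrix genes, some of them higher on it and others lower. Thbs2, a thrombospondin, and the fibrillar collagen Col5a2 read lowest on vector replicate 2, at 104.4 and 683.8. On the other 3 arrays they read 162.3 to 319.6 and 951.7 to 1564.5. Dcn, the collagen-binding proteoglycan decorin, read 139.3 on vector replicate 2 and 18.5 to 37.7 on the other 3 arrays. Postn, periostin, which binds collagen and Bmp1, read 125.1 there, 46.4 on Men1 replicate 2, and 5.7 and 8.2 on the replicate 1 arrays. Prrx1, a mesenchymal transcription factor on the fibroblast list, read 125.6 there against 16.5 to 54.0 elsewhere. The smooth muscle gene Cnn1, calponin, ran the opposite way by replicate number, with 882.1 and 1547.7 on the replicate 1 arrays and 217.0 and 199.9 on the replicate 2 arrays. The 4 smooth muscle markers summed to 8894 and 5456 with Men1 and 11090 and 5150 with vector, with 3 of 4 above the controls on all arrays and Myh11 on none. The summed signal of the 11 fibroblast markers was 9664 and 8101 with Men1 and 7886 and 9425 with vector. The part of these differences between arrays in the Lox and Pcolce values was not tested.

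The profiles of the 10 over the 4 arrays were compared by the root mean square (RMS) distance between their log2 values, each centred on its own mean. The closest pair was P4ha1 with Bmp1 (dimmer), at an RMS distance of 0.0755, both lowest on vector replicate 1. The brighter and dimmer probe sets of Lox were among the most distant, at 0.545, farther apart than those of Bmp1 at 0.123. Over the 10, the SD across arrays was 0.46 for Pcolce and 0.36 for Lox (brighter) and 0.07 for P4ha2 (brighter), on the log2 scale.

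Outside the 10, the genes with the most similar profile to each member were found in the same way among 6512 single-gene probe sets that were above the controls on all 4 arrays. For Lox (brighter) these were Taf6 (RMS distance 0.0388) and Tnfrsf1a (0.0543), for Pcolce Tapbp (0.0238) and Irf1 (0.0397), and for Loxl1 Cpne1 (0.0204) and Clta (0.0211). Tapbp read 249.1 and 281.3 with Men1, against 240.7 and 476.1 with vector, and shared with Pcolce the lone high array. For P4ha1 they were Capn1 and Blm, for P4ha2 (brighter) Ext2 and Actl6a, for Serpinh1 Hars and Etf1, and for Bmp1 (brighter) Slc30a5 and Psmc2, all at RMS distances from 0.00545 to 0.0148. Within an RMS distance of 0.1 there were 36 probe sets for Pcolce and 39 for Lox, and 571 to 911 for P4ha1, P4ha2, Serpinh1 and Bmp1, whose SDs over the arrays (0.07 to 0.18 on the log2 scale) were smaller. With 4 arrays such a likeness describes these arrays only.

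Related genes of the pathway were taken from lists chosen for function, each gene by its brightest probe set. Of 31 other collagen processing genes 15 were measured in single-gene probe sets, and 16, among them the lysyl hydroxylases Plod1 and Plod2 and the lysyl oxidases Loxl2, Loxl3 and Loxl4, were not analysed here. By limma 0 of 15 passed after adjustment and 0 at an unadjusted p under 0.05, with 7 higher and 8 lower with Men1. The groups did not overlap for 3 of the 15, Sparc and the prolyl 3-hydroxylase partner Crtap (lower) and P4hb (higher). Over all probe sets 22.1% did not overlap, so this count is near that share. Sparc, a collagen-binding matricellular protein, read 2155.6 and 2282.3 with Men1, against 2597.6 and 2867.2 with vector, both vector arrays higher (log2 difference -0.30, SE 0.18). Tll1, a tolloid-like proteinase related to Bmp1, read 37.9 and 66.6 against 45.9 and 17.5, which overlap (0.55, SE 0.38). Tgm2, a transglutaminase that cross-links matrix proteins, differed by 0.36 (SE 0.38) and the prolyl 3-hydroxylase P3h3 by -0.32 (SE 0.36). On vector replicate 2 the Tll1 and Tgm2 signals (17.5 and 18.5) were below the highest control of that array. Without single arrays the Tll1 difference ranged from 0.11 to 0.99. P4hb, the beta subunit partner of P4ha1 and P4ha2, read 517.2 and 513.7 against 480.1 and 448.9 in its brighter probe set, without overlap (0.15, SE 0.17), and differed by 0.0011 in its dimmer one. The dimmer one was below the highest control on Men1 replicate 1, at 24.1.

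**Figure D4:**
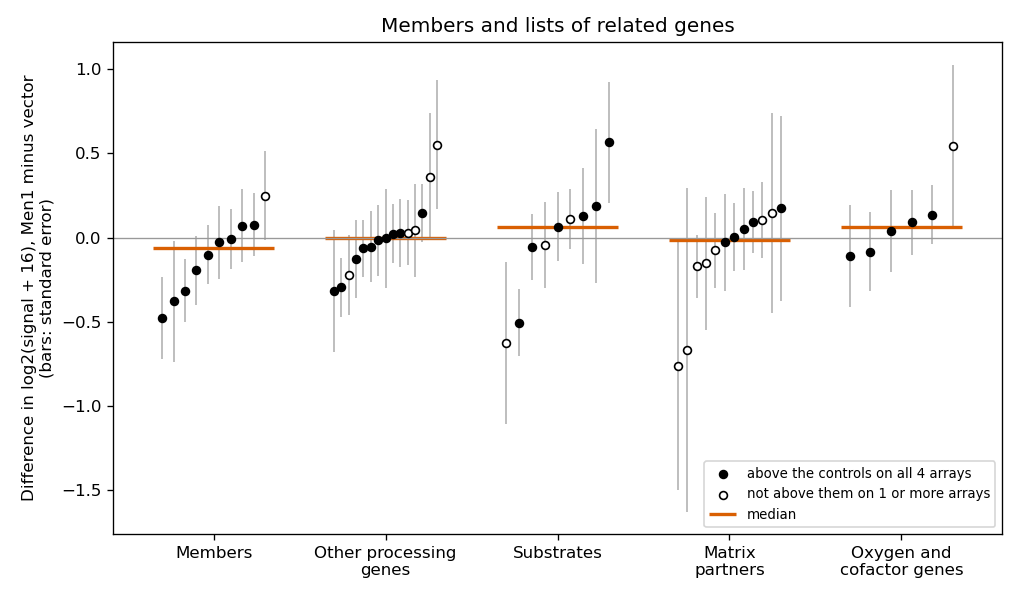
Difference in log2(signal + 16), Men1 minus vector (vertical axis), with its SE (bars) for the 10 member probe sets and for the measured genes of 4 lists; filled points were above the controls on all 4 arrays, open points were not, and orange lines are medians. Medians lie between -0.06 for the members and 0.07 for the substrates.

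The substrates of these enzymes did not pass either. Of 9 measured fibrillar collagen and elastin genes 0 passed in limma and 0 had an unadjusted p under 0.05, with 5 higher, 4 lower and a median of 0.07. Col11a1, a minor fibrillar collagen, read 33.6 and 28.0 with Men1, against 43.7 and 57.7 with vector (-0.51, SE 0.20, limma adjusted p = 1). It was the only member of this list whose groups did not overlap, where 22.1% of all probe sets did not. Eln, tropoelastin, which Lox and Loxl1 oxidise, read 52.7 and 60.8 against 19.0 and 52.8 (0.57, SE 0.36), where vector replicate 1 alone was low. Col3a1, the collagen of fine fibrils, read 24.5 and 40.7 against 30.9 and 101.3 (-0.63, SE 0.48), with vector replicate 2 highest. Its signal on Men1 replicate 1 was below the highest control. Col5a1 differed by 0.13 (SE 0.29). Col1a1, the main substrate of Bmp1 and Lox in fibroblasts, differed by 0.07 (SE 0.21) in its brighter probe set and by -0.04 (SE 0.22) in its dimmer one.

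Matrix proteins that bind these enzymes or collagen were split evenly. Of 12 measured, 6 were higher and 6 lower with Men1, 0 passed in limma, 0 had an unadjusted p under 0.05, and the groups overlapped for each. Over all probe sets the groups did not overlap for 22.1%. Dcn differed by -0.76 (SE 0.74), fibulin Fbln1 by 0.09 (SE 0.18), myostatin Mstn, whose propeptide Bmp1-like proteinases cut, by -0.08 (SE 0.22) and thrombospondin Thbs2 by 0.17 (SE 0.55). Dcn on Men1 replicate 1 (18.7) and Mstn on Men1 replicate 2 (17.2) were below the highest control of those arrays. Of 6 measured genes for oxygen sensing and for the supply of vitamin C and copper, 4 were higher and 2 lower, again with 0 past the limma threshold and 0 at an unadjusted p under 0.05. Atp7a, the copper transporter that loads lysyl oxidases, read 105.1 and 93.5 with Men1, against 92.2 and 85.4 with vector, both Men1-complemented arrays just above both vector arrays (0.14, SE 0.18). Hif1a differed by 0.09 (SE 0.19), the vitamin C transporter Slc23a2 by -0.11 (SE 0.30) and the oxygen sensor Egln2 by -0.09 (SE 0.23).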

How the data were processed

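The authors deposited 1 intensity per probe set and array on a linear scale. Affymetrix Expression Console with MAS5 is named in the submitters' processing notes, without versions. The 66 control probe sets were left out, and the other 12422 were analysed as log2(signal + 16), with no further normalization. A difference on this scale understates the fold of dim probe sets, and scaling hides any change in RNA content per cell. The groups were compared by limma 3.58.1 (lmFit, eBayes; R 4.3.3) in a two-sided test with p-values adjusted over all probe sets by Benjamini-Hochberg. The fit had 2 residual and 2.87 prior degrees of freedom. The script was tested on simulated data, with planted changes larger than any member difference here. That test does not show whether differences of the observed size would be detected.

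Genes were named from the platform annotation (1 symbol per probe set, 10833 probe sets), and 10817 of their gene IDs were found in the GRCm38.p6 gene table, used for current symbols only. The number of arrays limits the precision: the median SE of a log2 difference was 0.22. The genes, lists and tests were chosen with earlier results of these data known. All member probe sets were named, with up to 4 genes per list by smallest p among those above the controls on both arrays of a group, and the 2 genes of smallest RMS distance to each member. Sparc, Tll1, Tgm2 and P3h3 are so named from the processing list. P4hb, Crtap, Col1a1, Col5a2, Postn, Prrx1, Cnn1 and the other marker genes named were picked after their values were seen. Alternatives changed the pseudocount, scaling, probe set filter, test, replicate block and arrays.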

Additional observations from a re-analysis of the deposited data

How the results depend on the processing

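By limma, 0 of the 10 member probe sets and 0 of all probe sets passed in every setting run, with 121 to 1031 of all at an unadjusted p under 0.05 across the fits without 1 array (121 and 131 without Men1 replicates 1 and 2, 1031 and 559 without vector replicates 1 and 2), 130 with dim probe sets left out, and 233 as reported. Lox (brighter), Loxl1, the dimmer P4ha2 and the brighter Bmp1 probe sets stayed below 0 in every setting. Settings that change only the test or the probe sets included leave each difference as it is, so they cannot alter its sign. For Lox (brighter), Loxl1 and Bmp1 (brighter), whose groups did not overlap, leaving out 1 array cannot alter the sign either. Lox (dimmer) turned from 0.25 to -0.023 in one of the fits without 1 array (range -0.023 to 0.52), and stands at -0.48 if the brighter and -0.11 if the mean of both probe sets represents the gene. Without single arrays P4ha1 ranged from -0.039 to 0.19, P4ha2 (brighter) from -0.0945 to 0.077, Serpinh1 from -0.14 to 0.28, Bmp1 (dimmer) from -0.21 to 0.15 and Pcolce from -0.87 to 0.11. Lox (dimmer) has no value with dim probe sets left out, since it is among them. P4ha2 (brighter) was 0.011 with 75th percentile centring. The number of members whose groups did not overlap ranged from 3 to 9 without single arrays. The share over all probe sets in the same fits ranged from 50% to 72.4%. In those fits the number of lower genes in the oxygen and cofactor list ranged from 1 to 3. With dim probe sets left out, 3 genes of the matrix partner list were lower in place of 6, because fewer were tested.

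The distance from replicate 1 to replicate 2 correlated between the groups across probe sets (r = 0.26), but with 2 numbers this does not show that they pair the arrays. With replicate number as a block 0 passed, 297 of all had an unadjusted p under 0.05, and Lox (brighter) kept -0.48 at an unadjusted p of 0.0601.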
